A study of Rattus norvegicus with 256 samples.

Results

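Phase II conjugating enzymes couple drugs, steroids, bile acids and reactive by-products of metabolism to a polar group, so that the product can be exported in bile or urine. Glutathione S-transferases (the Gst genes, with the membrane-bound Mgst genes) add glutathione, sulphotransferases (Sult) add sulphate, and UDP-glucuronosyltransferases (Ugt) add glucuronic acid. The liver is the organ best known for all of these reactions, and the gut wall and kidney are the main extrahepatic sites. The members described here were the probesets of the RAE230_2 array whose single gene symbol starts with Sult1, Sult2, Sult4, Sult5, Ugt1, Ugt2, Ugt8, Gsta, Gstm, Gstp, Gstt, Gsto, Gstk, Gstz or Mgst. They were 49 of 31042 probesets and stood for 45 genes: 21 probesets of 20 Gst genes, 3 of 3 Mgst genes, 14 of 13 Sult genes and 11 of 9 Ugt genes. Gstt2, Sult2b1, Ugt2b and Ugt8 had 2 probesets each, and the one with the higher mean over all arrays is quoted unless the other is named. A further 4 probesets of conjugating enzymes carry several symbols and were left out, and with them every probeset of a Ugt1 gene.

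RNA of 31 organs was measured on arrays, 115 from 26 somatic organs of males, 119 from the same organs of females, and 22 from the testes, epididymis, prostate, ovary and uterus. Each array held the RNA of 1 organ of 1 rat. All groups, male and female, were untreated Han Wistar-derived rats (AlpkHsdBrlHan:WIST), and the labels give no age. The methods name 5 males and 5 females from which the organs came, so the replicates were animals, and the organs of an animal were not independent of each other. Values are GCRMA summaries on a log2 scale, from 1.02 to 15.83, with array medians of 3.86 to 4.45. The threshold of the methods, about 6.7 on this scale, was used: a probeset counted as expressed in an organ if the mean of either sex exceeded it, and as sexually dimorphic in its expression (SDE) if the sexes also differed by more than 2-fold at an adjusted p under 0.05 (limma, all 31042 probesets of the tissue). Probesets of close paralogs in the Gsta, Gstm, Sult1c, Sult2a and Ugt2b clusters may bind each other's transcripts. The split between such paralogs is therefore uncertain.

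The marker genes of the organs were found where the labels place them, with 8 of 8 hepatocyte markers expressed in the liver, 7 of 7 renal tubule markers in the kidney and 5 of 5 measured adrenal cortex markers in the adrenal. In 17 arrays of 11 organs, however, a marker list of another organ averaged above 6.7 and more than 3 log2 units above the median of the organ. Among the organs with SDE members these were liver female 5 (lung epithelium, 11.58), duodenum male 5 and female 1 (gastric epithelium, 8.85 and 13.51), and pituitary male 1 and female 1 (adrenal cortex, 9.68 and 10.77). Every duodenum array also held pancreatic acinar markers, between 10.34 and 13.52, and every thyroid array skeletal muscle markers, between 9.96 and 12.52. In aorta male 3, heart male 5 and bone marrow male 5, Xist and the Y-linked Eif2s3y went against the labelled sex. Bone marrow female 2 held both Xist (9.20) and Eif2s3y (8.43), and so did thyroid male 1 (9.89 and 9.95). Spleen female 3 had neither above the threshold (3.59 and 2.73). None of these arrays was from a tissue with an SDE member.

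Promoter windows from RefSeq (build GRCr8, 250 bases before to 50 after the annotated start) were found for 39 of the 45 genes, in 42 windows. They are shown here for genes on which the results below turn: 2 neighbouring members with opposite organ patterns (Gstp1 and Gstp3) and 3 sulphotransferases that were SDE in the liver (Sult1e1, Sult2a2 and Sult2a6). Capitals mark matches, on either strand, to 5 motifs. The core of the antioxidant response element was searched as TGACNNNGC. The core bound by the aryl hydrocarbon receptor was searched as GCGTG. The core of a STAT site was searched as TTCNNNGAA. An arm of an HNF1 site was searched as GTTAAT. The TATA box was searched as TATAAA.
Gstp1: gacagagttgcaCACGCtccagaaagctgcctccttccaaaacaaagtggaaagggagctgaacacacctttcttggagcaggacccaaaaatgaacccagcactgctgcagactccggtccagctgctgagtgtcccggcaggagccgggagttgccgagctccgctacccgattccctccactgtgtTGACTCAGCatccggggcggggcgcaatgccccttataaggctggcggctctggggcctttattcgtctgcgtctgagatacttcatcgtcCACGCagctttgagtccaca
Gstp3: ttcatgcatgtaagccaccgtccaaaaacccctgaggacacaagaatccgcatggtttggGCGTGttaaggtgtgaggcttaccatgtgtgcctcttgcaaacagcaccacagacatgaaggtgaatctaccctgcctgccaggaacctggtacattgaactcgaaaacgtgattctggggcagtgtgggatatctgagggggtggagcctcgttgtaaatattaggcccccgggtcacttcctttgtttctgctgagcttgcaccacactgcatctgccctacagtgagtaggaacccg
Sult1e1: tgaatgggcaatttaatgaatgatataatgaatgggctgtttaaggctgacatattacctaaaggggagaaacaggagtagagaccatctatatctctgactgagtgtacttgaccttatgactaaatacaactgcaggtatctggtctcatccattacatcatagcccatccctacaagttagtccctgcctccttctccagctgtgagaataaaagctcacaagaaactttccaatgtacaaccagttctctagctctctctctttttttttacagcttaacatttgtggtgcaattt
Sult2a2: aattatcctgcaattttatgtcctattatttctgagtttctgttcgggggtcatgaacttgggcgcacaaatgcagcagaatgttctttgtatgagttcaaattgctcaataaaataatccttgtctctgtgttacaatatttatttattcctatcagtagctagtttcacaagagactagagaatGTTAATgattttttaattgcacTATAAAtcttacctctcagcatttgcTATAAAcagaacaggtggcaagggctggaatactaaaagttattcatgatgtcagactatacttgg
Sult2a6: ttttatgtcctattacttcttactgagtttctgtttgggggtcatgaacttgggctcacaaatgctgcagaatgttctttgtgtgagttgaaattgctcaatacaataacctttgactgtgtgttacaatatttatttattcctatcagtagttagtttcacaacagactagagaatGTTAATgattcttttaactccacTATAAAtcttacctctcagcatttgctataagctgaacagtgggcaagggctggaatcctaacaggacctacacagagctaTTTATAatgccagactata
These windows are chr1:210769656-210769955 for Gstp1, chr1:210787635-210787934 for Gstp3, chr14:20701230-20701529 for Sult1e1, chr1:85104483-85104782 for Sult2a2 and chr1:84097759-84098058 for Sult2a6, with Sult1e1 on the plus strand and the other 4 on the minus strand. The Gstp1 window held 1 antioxidant response core at position -61 from the start and 2 aryl hydrocarbon receptor cores, whereas that of Gstp3 held 1 aryl hydrocarbon receptor core and no antioxidant response core. Sult2a2 and Sult2a6 each held an HNF1 arm (at -64 and -73) and 2 matches to the TATA box, and Sult1e1 held none of the 5 motifs. In Sult2a6, 1 of these TATA matches was at -50 and the other, on the opposite strand, was after the start, at 31. Over all 33469 windows, the antioxidant response core was found in 12.1%, the aryl hydrocarbon receptor core in 29.7%, the STAT core in 8.87%, the HNF1 arm in 7.45% and the TATA box in 14.2%. Over the 42 windows of the members these shares were 14.3%, 26.2%, 9.52%, 14.3% and 26.2%. A match to so short a motif describes the letters and is no evidence of binding.

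Members ranged from genes expressed in every organ to genes expressed in a single one. Only Gsto1, Gstp1, Mgst1 and Mgst3 were expressed in all 31 organs, which was 8.163% of the members and 12.17% of all probesets. Expression in exactly 1 organ was found for 10 members (20.41%, against 9.738% of all probesets), and 5 members (10.2%, against 35.29%) were expressed in none. The other 30 members were expressed in 2 to 30 organs. Gsto1, which also reduces dehydroascorbate and methylated arsenic, kept within the narrowest band of these, with organ means between 8.75 in the thyroid and 11.95 in the kidney. Mgst1, the microsomal enzyme that also reduces lipid peroxides, was highest in the liver at 14.46 ± 0.13 (SD, n = 9) and in adipose at 14.31 ± 0.18 (SD, n = 10), and the arrays of these organs overlapped. The 5 members below the threshold everywhere were Gstm3, Sult2a1, Ugt2a1 and the second probesets of Gstt2 and Ugt8.

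**Figure D1:**
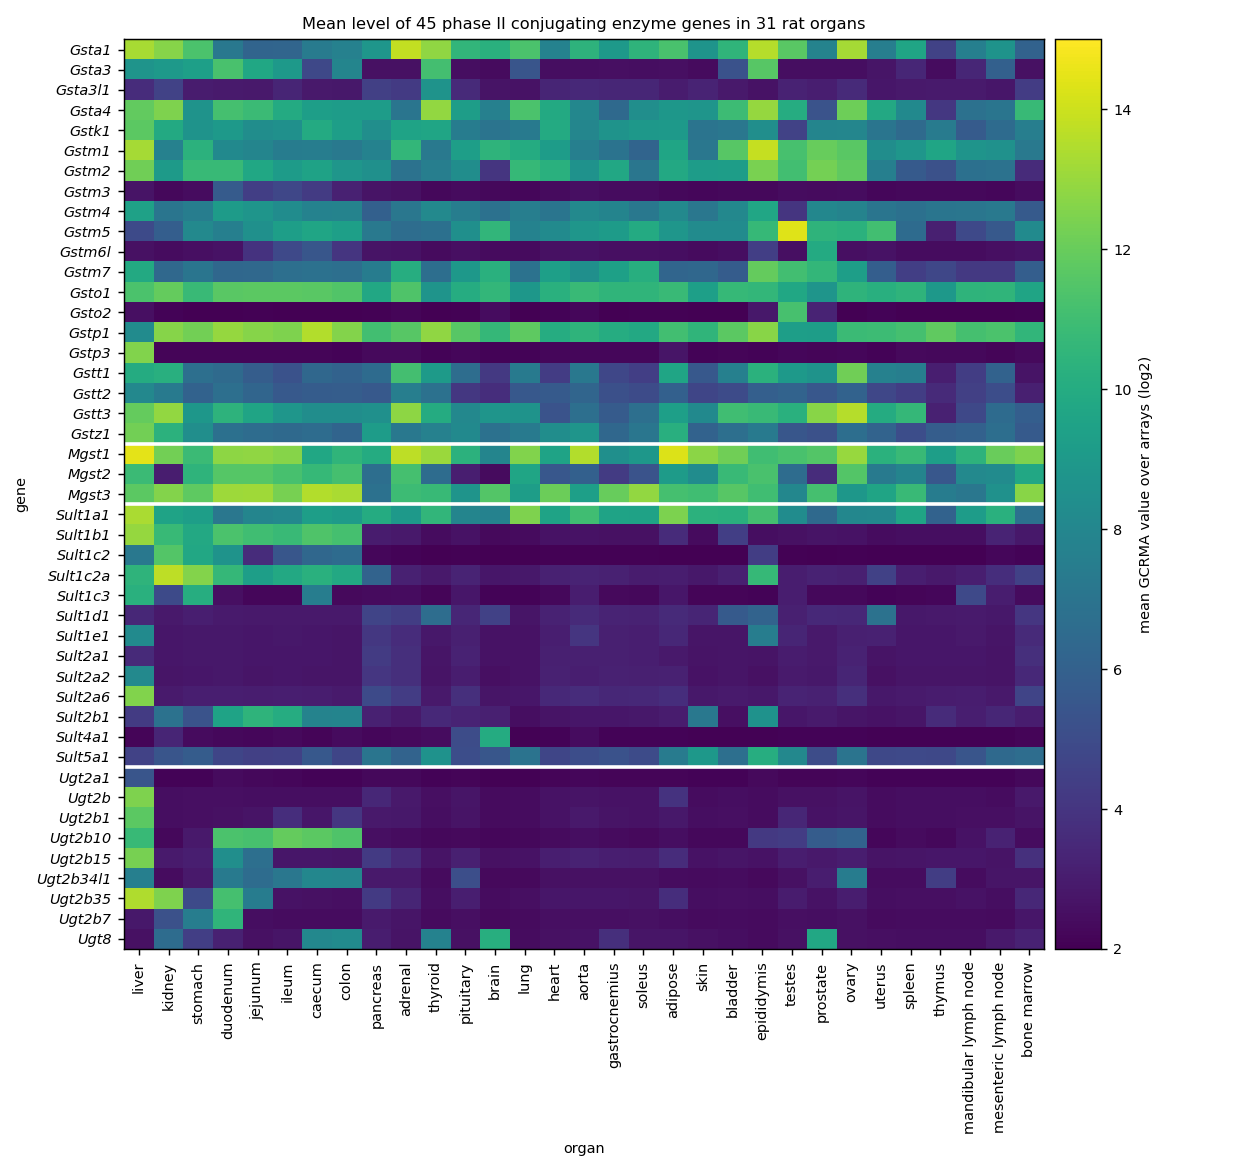
Mean level (log2 GCRMA value, colour) of each of the 45 genes (rows, by family, with white lines between Gst, Mgst, Sult and Ugt) in each of the 31 organs (columns), 1 probeset per gene. The rows of Gsto1, Gstp1, Mgst1 and Mgst3 are above 6.7 throughout, while Gstp3, Gsto2, Sult4a1 and most Ugt2b genes are bright in 1 or a few organs.

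Each organ was set against the mean of the other 30 organs in 1 limma fit, in which organ means weight the sexes equally. The liver had the most members above the rest, 30 of 49 (61.22%), against 7.79% of all probesets, and 2 members below it (4.082%, against 5.93%). The median difference over the members was 3.09 in the liver and -0.04 over all probesets. The duodenum followed with 21 members higher (background 7.09%), the epididymis with 18 (8.33%), the kidney with 17 (7.74%) and the jejunum with 15 (7.61%). In the caecum and colon 14 members each were higher (7.49% and 7.08%), in the ileum and thyroid 13 each (7.95% and 6.77%), and in the stomach and ovary 12 each (5.57% and 6.86%). At the other end, no member was higher in the thymus or the mandibular lymph node in this fit, and 13 (background 5.39%) and 11 (3.98%) were lower. These are bulk tissues, so that fewer cells of a type and less RNA per cell cannot be told apart.

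**Figure D2:**
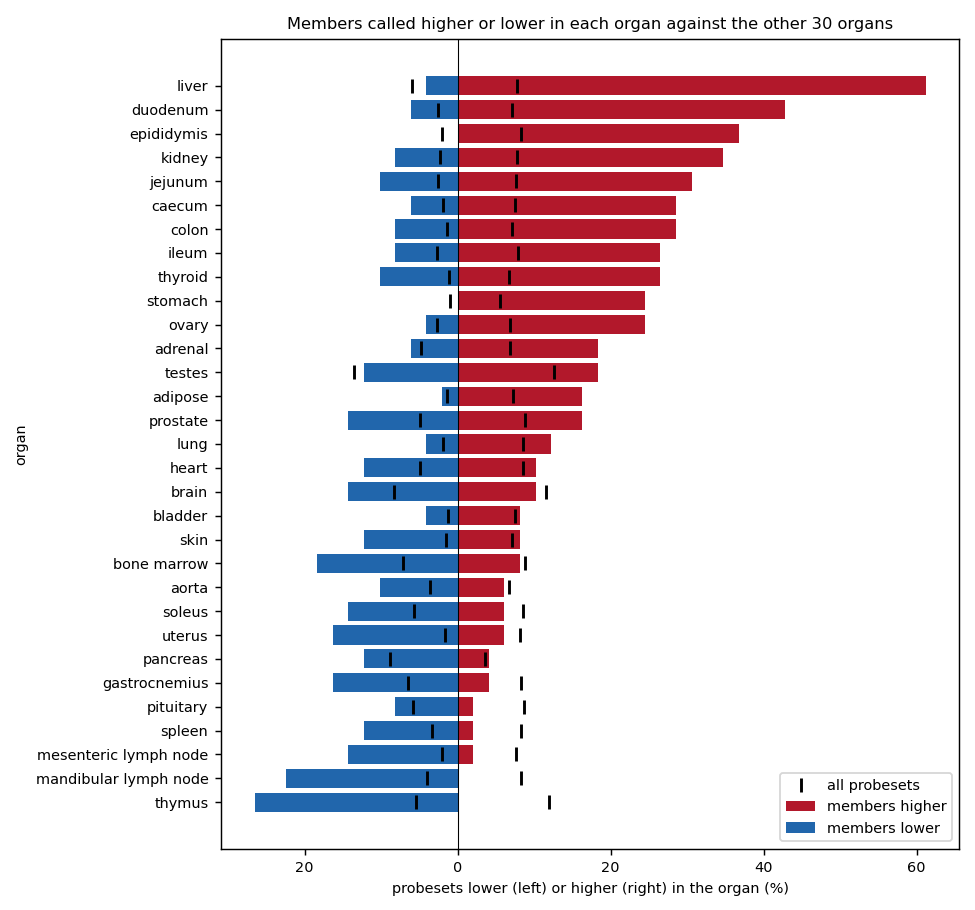
Percentage of the 49 members called higher (red, to the right) or lower (blue, to the left) in each organ (rows) than in the mean of the other 30 organs (limma, adjusted p under 0.05, over 2-fold). Black ticks give the same percentage over all 31042 probesets; the liver bar reaches 61.22%, against a tick at 7.79%.

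All families took part in the liver excess. Of the Ugt2b enzymes, which glucuronidate steroids, bile acids and drugs, only Ugt2b and Ugt2b1 were expressed in the liver alone. Ugt2b averaged 12.42 in the liver (at least 5.77 above the threshold, below which the mean of the other organs lay). Ugt2b1 averaged 11.66 there (at least 5.01). Sult2a6, a sulphotransferase of hydroxysteroids and bile acids, averaged 12.36 there (at least 5.71). Gstz1, which isomerises maleylacetoacetate in the breakdown of tyrosine, averaged 12.25 there (difference 5.20), and Gstk1, the mitochondrial and peroxisomal enzyme, averaged 11.71 there (difference 3.66). The largest limma adjusted p among these 5 genes was 2.56e-78, for Gstk1. Gstp1 and Gstm5 were the 2 members that were lower in the liver, Gstp1 with a difference of -3.18 and Gstm5 with a liver mean of 4.95, below the threshold, and a mean of 8.43 over the other organs (at least 1.78).

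Organ patterns parted within gene clusters. Gstp1 and Gstp3 are direct neighbours on chromosome 1, with no other protein-coding gene between them in RefSeq. Gstp3 was read at 13.12, 12.29, 12.15 and 12.21 in the male liver arrays and at 12.99, 12.76, 12.76, 12.32 and 12.43 in the female ones. Gstp1, the pi-class enzyme used as a marker of preneoplastic rat liver foci, was at 7.86, 7.58, 7.56 and 7.89 in the male livers and 8.33, 8.78, 8.11, 7.84 and 10.29 in the female ones. The last of these is liver female 5, the array with lung markers. Outside the liver the means of Gstp1 lay between 9.21 in the prostate and 13.49 in the caecum, all above the threshold. Those of Gstp3 lay between 2.10 in the brain and 2.74 in adipose, all below it. The liver held the lowest mean of Gstp1 and the only expressed level of Gstp3.

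Gsto1 and Gsto2, of the omega class, also lie side by side on chromosome 1. Gsto2 was at 11.24, 11.05, 11.04 and 11.62 in the 4 testes arrays. In the other 30 organs the mean of Gsto2 lay between 1.98 in the mesenteric lymph node and 3.28 in the prostate, all below the threshold. Gsto1 was expressed in the testes too, at 9.76 ± 0.32 (SD, n = 4), inside the range of its other organs. In the mu-class cluster on chromosome 2, Gstm5 was highest in the testes, at 14.55, 14.44, 13.91 and 14.60, and no array of the uterus (11.04 ± 1.19, SD, n = 5), the organ next in order, reached that level. Its direct neighbour Gstm6l was expressed in the prostate alone (9.52, 8.89, 10.90, 10.01 and 10.31). Uterus female 1 carried male germ cell markers (8.85, against an organ median of 5.26) and uterus female 2 epidermis markers (8.75). The part of these in the uterus level of Gstm5 was not tested.

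**Figure D3:**
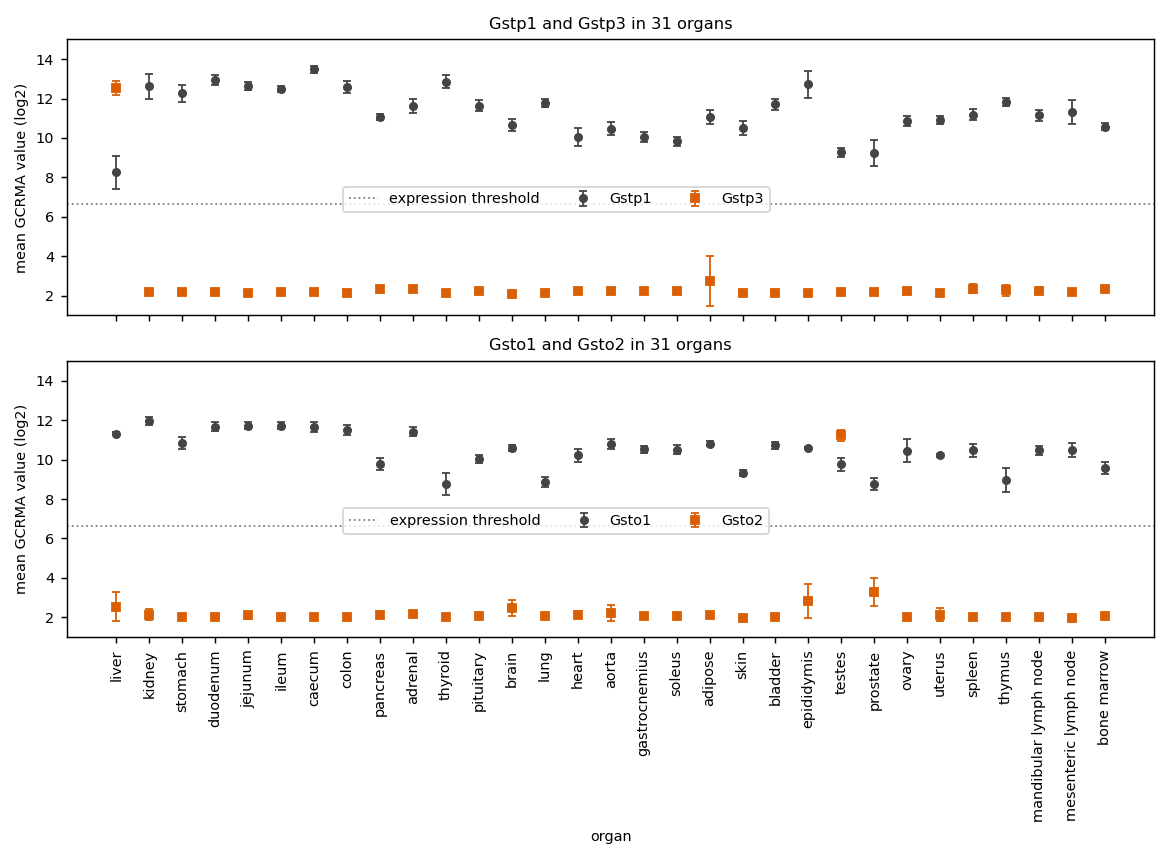
Mean and SD over arrays (log2 GCRMA value) of Gstp1 and Gstp3 (upper panel) and of Gsto1 and Gsto2 (lower panel) in 31 organs, with the threshold of 6.7 dotted. Gstp3 rises above the threshold in the liver alone, where Gstp1 is at its lowest mean of 8.25, and Gsto2 in the testes alone, at 11.24.

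Further members were tied to 1 organ. Sult4a1, an orphan sulphotransferase of neurons, averaged 9.99 ± 0.33 (SD, n = 10) in the brain, ahead of 5.04 ± 0.44 (SD, n = 10) in the pituitary, and the arrays of these organs did not overlap. Gsta3l1 was expressed in the thyroid alone, where 9 arrays lay between 8.50 and 10.72 and female 4 was at 2.88. The thyroid follicle markers of that array averaged 11.21, inside the range of the others (10.37 to 11.39). Sult2a2 and Sult2a6 were expressed in the liver alone, and Sult1e1 in the liver and epididymis.

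The gut and kidney shared members with the liver to different degrees. Sult1b1, which sulphates thyroid hormones and phenols, was expressed in 8 organs: the liver (12.96 ± 0.22, SD, n = 9), the caecum (11.41 ± 0.25, SD, n = 10), the duodenum (11.31 ± 0.64, SD, n = 9), and the colon, jejunum, ileum, kidney and stomach. Ugt2b10 was expressed in the liver and all 5 bowel segments, with means from 10.74 in the liver to 11.95 in the ileum. Ugt2b7 was expressed in the duodenum (10.48 ± 0.48, SD, n = 9), stomach (7.49 ± 1.63, SD, n = 10) and male kidney but not in the liver. Sult1c2a was highest in the kidney (13.69 ± 0.16, SD, n = 10) and stomach (12.57 ± 1.15, SD, n = 10), where single arrays overlapped. Ugt8, which makes the galactosylceramide of myelin, led in the brain (10.17 ± 0.55, SD, n = 10) and prostate (9.78 ± 0.40, SD, n = 5), and these arrays overlapped.

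Gsta1 was highest in the adrenal at 13.82 ± 0.10 (SD, n = 10) and lowest in the thymus at 4.54 ± 0.64 (SD, n = 8), and Sult1a1 was highest in the liver at 13.36 ± 0.20 (SD, n = 9) and lowest in the thymus at 6.10 ± 0.37 (SD, n = 8). Ugt2b35, expressed in 4 organs, was highest in the liver at 13.43 ± 0.24 (SD, n = 9). Mgst3, a microsomal enzyme that reduces lipid peroxides, was highest in the caecum at 13.52 ± 0.13 (SD, n = 10) and lowest in the pancreas at 6.86 ± 1.23 (SD, n = 7). Set beside each other over the 31 organ means, Sult2a2 was most like Sult2a6 (Pearson r = 0.996), Gstp3 most like Ugt2b (r = 0.99), Sult1c2 most like Sult1c2a (r = 0.93) and Ugt2b10 most like Ugt2b34l1 (r = 0.90). These r describe 31 organs that share animals and a normalization, and for genes of a single organ they rest on that organ. Gstp3 was least like its neighbour Gstp1 (r = -0.46).

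A run of 11 member genes on chromosome 14, from Sult1e1 to Ugt2b34l1 in RefSeq order, held several organ patterns side by side. Sult1e1, Sult1d1 and Sult1b1 at one end of the run led in the liver, the uterus and the liver. Ugt2b35 and Ugt2b7, which follow each other with no protein-coding gene between them, led in the liver and the duodenum. Sult1d1, which sulphates catecholamines in rodents, came only just above the threshold, at 6.92 ± 0.73 (SD, n = 5) in the uterus.

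Kidney and liver, the main organs of clearance, differed in 26 members, 5 higher (background 8.51%) and 21 lower (5.96%) in the kidney. Where a mean was below the threshold, only the distance of the other mean from the threshold is given. Gstp3 averaged 2.16 in the kidney and 12.55 in the liver (at least 5.90 between the liver mean and the threshold), Ugt2b averaged 2.47 in the kidney and 12.42 in the liver (at least 5.77 between the liver mean and the threshold), and Ugt2b15 averaged 2.94 in the kidney and 12.35 in the liver (at least 5.70 between the liver mean and the threshold). Mgst2, a microsomal enzyme that can also make leukotriene C4, averaged 3.02 in the kidney and 10.87 in the liver (at least 4.22 between the liver mean and the threshold). Gstm1 averaged 7.72 in the kidney and 13.27 in the liver (difference -5.56 ± 0.23, SE). The members higher in the kidney were Gstp1 (12.62 against 8.20 in the liver), Sult1c2 (11.53 against 7.24 in the liver), Sult1c2a (13.69 against 10.46 in the liver) and both probesets of Sult2b1. Between the ends of the bowel, 12 members were higher (2.7%) and 3 lower (3.6%) in the duodenum than in the colon. Ugt2b35 averaged 11.10 in the duodenum and 2.55 in the colon (at least 4.45 between the duodenum mean and the threshold), Ugt2b7 averaged 10.49 in the duodenum and 2.41 in the colon (at least 3.84 between the duodenum mean and the threshold), and Ugt2b15 averaged 8.39 in the duodenum and 2.72 in the colon (at least 1.74 between the duodenum mean and the threshold). Ugt8 went the other way and averaged 3.24 in the duodenum and 8.30 in the colon (at least 1.65 between the colon mean and the threshold).

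The gonads differed in 15 members, 4 higher and 11 lower in the testes than in the ovary. These were 8.163% and 22.45% of the members, against 12.4% and 15.8% of all probesets. In either direction 28.1% of all probesets differed between these organs, so such differences were not particular to the members. Whether the members exceeded that share was not tested. Gstt3 averaged 10.24 in the testes and 13.58 in the ovary (difference -3.34 ± 0.30, SE), and Gstt1 averaged 8.97 in the testes and 12.18 in the ovary (difference -3.21 ± 0.33, SE), and the ovary was the highest organ of both. Both are theta-class enzymes, which act on halogenated compounds. Mgst2 averaged 6.59 in the testes and 11.53 in the ovary (at least 4.88 between the ovary mean and the threshold), Ugt2b34l1 averaged 2.59 in the testes and 7.45 in the ovary (at least 0.80 between the ovary mean and the threshold) and Gstm4 averaged 3.99 in the testes and 7.83 in the ovary (at least 1.18 between the ovary mean and the threshold). In the other direction stood Gsto2, Gstm5, Gstm7 and Sult5a1, with differences of at least 4.59 for Gsto2, which was below the threshold in the ovary, and of 4.08, 1.76 and 1.07 for the other 3. Of the 18 members higher in the epididymis than in other organs, 7 had their highest mean there: Gstm1 (13.86 ± 0.24, SD, n = 3), Gstm2 (12.36 ± 0.27, SD, n = 3), Gstm4 (9.70 ± 0.98, SD, n = 3), Gstm7 (11.92 ± 0.63, SD, n = 3), Gsta3 (11.62 ± 0.46, SD, n = 3), Gsta4 (12.96 ± 0.24, SD, n = 3) and Sult5a1. For Gstm7 no array of the testes, the organ next in order, overlapped, and for the other 6 the arrays of the next organ did. Sult5a1 was at 8.88, 8.46 and 12.93, with 1 of the 3 arrays far above the others.

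Pathway partners of the conjugating enzymes were described from 4 lists. Over all probesets 7.79% were higher and 5.93% lower in the liver, 7.74% higher and 2.34% lower in the kidney, and 5.39% lower in the thymus. Of 14 measured genes that supply cofactors such as UDP-glucuronic acid, sulphate donor and glutathione, 8 were higher and 2 lower in the liver than in the other organs, with a median difference of 1.33, and 8 were higher and none lower in the kidney. Of 17 other conjugating enzymes, among them N-acetyl-, methyl- and acyl-transferases, 10 were higher in the liver and 9 in the kidney, with none lower in either. Of 16 genes that process or export conjugates, 7 were higher and 1 lower in the liver, and 8 were higher in the kidney. Of 12 stress-response and phase I genes, 8 were higher in the liver. In the thymus, where 13 members were lower, 3 of the 14 cofactor genes were lower and none higher.

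Males and females were compared in the 26 somatic tissues. Members were SDE in 6 of them, in 22 cases in all, 14 higher in males and 8 higher in females. There were 7 cases in the duodenum (14.29% of members, against 2.78% of all probesets), 6 each in the liver (12.24%, against 0.825%) and kidney (12.24%, against 1.85%), and 1 each in the adrenal (0.886%), pituitary (1.17%) and skin (0.0677%). In the other 20 tissues limma and the methods' t-test each called 0 members, and 0 to 10 members per tissue had an unadjusted p under 0.05. There 0% to 0.197% of all probesets were SDE. The aorta, heart and bone marrow, with arrays at odds with their sex label, are among the 20. They had 0 probesets called, so the 0 members there carry no information. Without aorta male 3, heart male 5, bone marrow male 5 and bone marrow female 2, limma called 7 probesets in the aorta, 4 in the bone marrow and 1 in the heart, none of them a member. The thyroid and spleen are also among the 20. With thyroid male 1 and spleen female 3 kept, they had 3 and 5 probesets called. In 21 of the 22 cases no male array overlapped a female one. Such separation largely follows from the call itself and is no further support for it. The exception was Ugt2b7 in the kidney.

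The liver held the largest fitted sex difference among the SDE members, that of Sult1e1, and 4 of the 6 genes concerned were sulphotransferases. Sult1e1, which inactivates oestrogens by sulphation, was at 13.72, 13.93, 13.28 and 13.86 in male livers and at 5.91, 3.52, 3.21, 3.28 and 3.22 in female livers. The difference was 9.87 ± 0.56 (SE, limma adjusted p = 8.5e-05), and since the female mean was below the threshold it is safely read only as at least 7.05, the distance of the male mean from that threshold. Sult1c3, another cytosolic sulphotransferase, was at 12.75, 12.81, 12.82 and 12.86 in males and at 6.49, 10.55, 6.33, 9.30 and 8.37 in females, a difference of 4.60 ± 0.85 (SE, limma adjusted p = 0.0374). The male arrays of Sult1c3 lay close together, with an SD of 0.05, while the females spread with an SD of 1.82. The call was lost in 7 of 9 fits that left out 1 array, with adjusted p-values up to 0.0994.

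Sult2a2 and Sult2a6, both hydroxysteroid sulphotransferases, ran the other way. Sult2a2 was at 3.20, 5.40, 3.79 and 3.79 in male livers and at 8.28, 12.14, 11.92, 12.15 and 12.33 in female livers (difference -7.32 ± 0.90, SE, limma adjusted p = 0.00633, at least 4.71 between the female mean and the threshold). Sult2a6 was expressed in both sexes, at 9.79, 11.55, 10.52 and 10.87 in males and 14.16, 14.01, 14.20, 13.63 and 14.15 in females, a difference of -3.35 ± 0.32 (SE, limma adjusted p = 0.00167). Female 1 was the female array with the most Sult1e1 and the least Sult2a2, in both cases the one nearest to males, but not for Sult2a6. The third member of the cluster, Sult2a1, was not expressed in any organ. The promoter windows of Sult2a2 and Sult2a6 printed above both carry the HNF1 arm and TATA letters upstream of the start. The window of Sult2a1 held TATA letters too, at -50 and 31 from the start.

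The remaining liver genes were higher in females. Ugt2b34l1 was at 3.58, 6.31, 6.54 and 5.43 in males and at 9.29, 9.16, 9.35, 9.21 and 9.45 in females (difference -3.83 ± 0.55, SE, limma adjusted p = 0.0137, at least 2.64 above the threshold). Gsta3, an alpha-class enzyme that in humans isomerises steroids, was at 5.14, 7.52, 6.15 and 8.72 in males and at 10.31, 10.15, 9.59, 10.41 and 10.63 in females (-3.34 ± 0.67, SE, limma adjusted p = 0.0475). Gsta3 kept its call in 1 of 9 fits without 1 array, and the adjusted p reached 0.113. The hepatocyte markers were at 14.35 to 14.46 in male and 14.34 to 14.44 in female livers, and none of the 8 was SDE. Of 9 pancreatic acinar markers, 1 was SDE and higher and 1 lower in male livers: Cela1 averaged 10.36 ± 0.23 in males, SD, n = 4, and 8.37 ± 0.27 in females, SD, n = 5, and Cpa1 averaged 2.47 ± 0.01 in males, SD, n = 4, and 10.24 ± 1.64 in females, SD, n = 5. That list averaged 3.57 to 3.88 in male and 3.87 to 4.69 in female livers. Among markers of other lists, Apoa4 of the enterocyte list (13.58 ± 0.20 in males, SD, n = 4, and 12.12 ± 0.32 in females, SD, n = 5) and Inhba of the ovarian list (10.04 ± 0.18 in males, SD, n = 4, and 8.87 ± 0.34 in females, SD, n = 5) were SDE as well. The part of these genes in the differences of the members was not tested. Without liver female 5, Gsta3 (adjusted p = 0.107) and Sult1c3 (adjusted p = 0.0804) lost their calls and the other 4 members kept theirs.

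**Figure D4:**
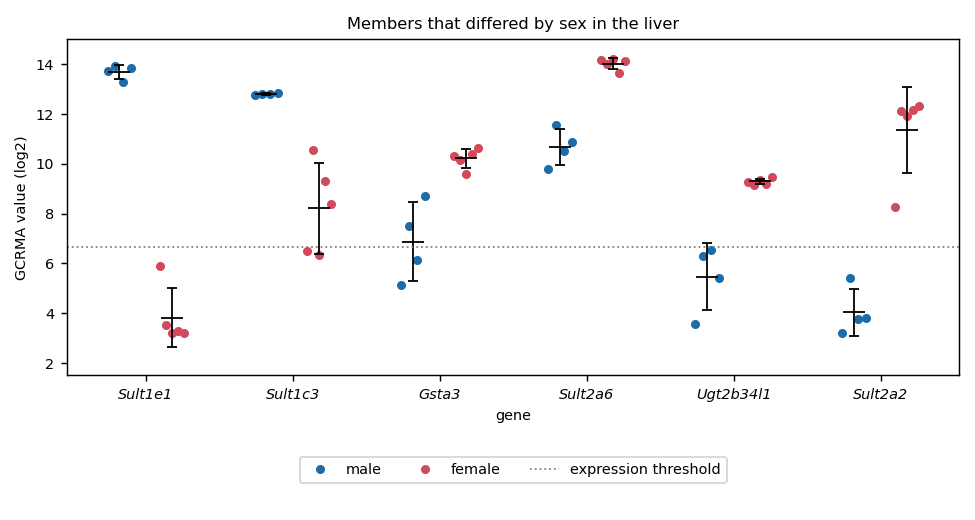
Log2 GCRMA values of the 6 members that were SDE in the liver, 1 point per array, 4 males (blue, left) and 5 females (red, right), with mean and SD in black and the threshold of 6.7 dotted. Males are above females for Sult1e1 and Sult1c3 and below them for Gsta3, Sult2a6, Ugt2b34l1 and Sult2a2.

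In the kidney, males had more of Ugt2b7, Sult1b1, Gsta1 and Gstp1, and females more Sult2b1. Gsta1, an alpha-class enzyme abundant in the renal proximal tubule, was at 13.40, 13.29, 13.44, 13.36 and 13.43 in males and at 11.93, 12.75, 11.33, 11.41 and 11.85 in females (difference 1.53 ± 0.24, SE, limma adjusted p = 0.00494). Gstp1 was at 13.41, 13.18, 13.16, 13.25 and 12.93 in males and 11.80, 12.17, 12.01, 12.03 and 12.24 in females (1.13 ± 0.10, SE, limma adjusted p = 0.000374). The sexes did not overlap for either gene, and both kept their calls under all 19 alternatives tried.

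Ugt2b7 showed the widest spread. It was at 8.78, 7.75, 5.10, 6.74 and 7.14 in male kidneys and at 3.08, 5.35, 2.57, 3.07 and 2.53 in female kidneys, so that male 3 lay below female 2. The difference was 3.78 ± 0.76 (SE, limma adjusted p = 0.014), of which 0.45 lies above the threshold. Sult1b1 was at 12.08, 11.64, 11.45, 11.72 and 11.72 in males and 9.87, 10.57, 8.57, 10.88 and 8.91 in females (1.96 ± 0.44, SE, limma adjusted p = 0.0215), and lost its call without male 1 or male 5 (adjusted p up to 0.0529). The renal tubule markers were at 11.87 to 12.37 in males and 11.63 to 12.51 in females, and 0 of 7 were SDE in limma. Of the other marker lists, Tff3 of the goblet and crypt list was SDE and higher in males (14.18 ± 0.10 in males, SD, n = 5, and 11.12 ± 0.47 in females, SD, n = 5), and its part in these differences was not tested.

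Sult2b1, which sulphates cholesterol and pregnenolone, had 2 probesets and both were SDE in both organs, in opposite directions. On the dimmer of the probesets the kidney values were 5.81, 6.23, 5.80, 5.50 and 6.35 in males and 7.44, 7.59, 7.83, 7.35 and 8.46 in females. On the same probeset the duodenum values were 10.73, 10.32, 10.46, 10.22 and 9.88 in males and 8.05, 8.02, 8.46 and 8.04 in females. Every male was thus below every female in the kidney and above every female in the duodenum. The sex difference in the duodenum minus that in the kidney was 3.97 ± 0.31 (SE, limma adjusted p = 8.45e-07), and 3.18 ± 0.25 (SE, limma adjusted p = 8.45e-07) on the other probeset. Both are fitted sizes, since the male kidney means were below the threshold (5.94 on the dimmer probeset and 6.28 on the other). The female kidney means were 1.08 and 0.92 above it.

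Gsta1 opposed Sult2b1 in both organs. In the duodenum Gsta1 was at 7.00, 6.07, 6.62, 6.77 and 6.70 in males and at 8.36, 8.34, 7.92 and 7.16 in females (-1.31 ± 0.28, SE, limma adjusted p = 0.0272), the reverse of the kidney. The male mean of Gsta1 in the duodenum (6.63) was just below the threshold, and the female mean was 1.30 above it. The 2 fitted sex differences differed by -2.84 ± 0.38 (SE, limma adjusted p = 0.000105). Ugt2b34l1, lower in male than in female livers, was higher in male duodenum, at 7.84, 7.62, 7.87, 7.95 and 7.47 in males and 6.64, 6.08, 6.95 and 7.18 in females (1.04 ± 0.22, SE, limma adjusted p = 0.0253). For this gene the duodenum minus liver difference was 4.87 ± 0.61 (SE, limma adjusted p = 0.000176), a fitted size, since the male liver mean was below the threshold.

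Among the other members of the duodenum, Sult1b1 averaged 11.77 ± 0.41 in males (SD, n = 5) and 10.73 ± 0.19 in females (SD, n = 4), a difference of 1.05 (limma adjusted p = 0.0223). Gstm4 averaged 9.61 ± 0.32 in males (SD, n = 5) and 8.59 ± 0.35 in females (SD, n = 4), a difference of 1.02 (limma adjusted p = 0.0236). The phenol sulphotransferase Sult1a1 averaged 6.44 ± 0.63 in males (SD, n = 5) and 8.09 ± 0.60 in females (SD, n = 4), a difference of -1.64 (limma adjusted p = 0.0384, at least 1.44 between the female mean and the threshold). Sult2b1 kept its call in the duodenum in all 9 fits without 1 array on both probesets. Gsta1, Gstm4, Sult1a1, Sult1b1 and Ugt2b34l1 lost theirs in 5, 6, 7, 7 and 5 of those 9 fits (adjusted p up to 0.078, 0.0611, 0.0984, 0.064 and 0.0646), and without male 3 only 2 of the 7 calls were left.

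Enterocyte markers moved with sex in these duodenum arrays. The list averaged 11.72 to 12.80 in males and 10.18 to 11.23 in females, 4 of 7 measured markers were SDE and higher in males (Alpi, Apoa4, Slc5a1 and Cdhr5), and the median difference over the 7 was 1.67. Gastric epithelium markers averaged 2.35 to 8.85 in males and 2.98 to 13.51 in females. Apoa1, Apoc3, Cyp17a1 and Cd74, markers of other lists, were also SDE and higher in males. Their part in the sex differences of the members was not tested. Without duodenum male 5 and female 1, Gsta1 (adjusted p = 0.0666) and Gstm4 (adjusted p = 0.0645) lost their calls and the other 5 probesets kept theirs. That fit still held male 1 (7.86) and female 2 (8.22), whose gastric markers were above the threshold but within 3 log2 units of the organ median (5.72). Female 2 was the highest female array for Sult1a1, at 8.75.

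**Figure D5:**
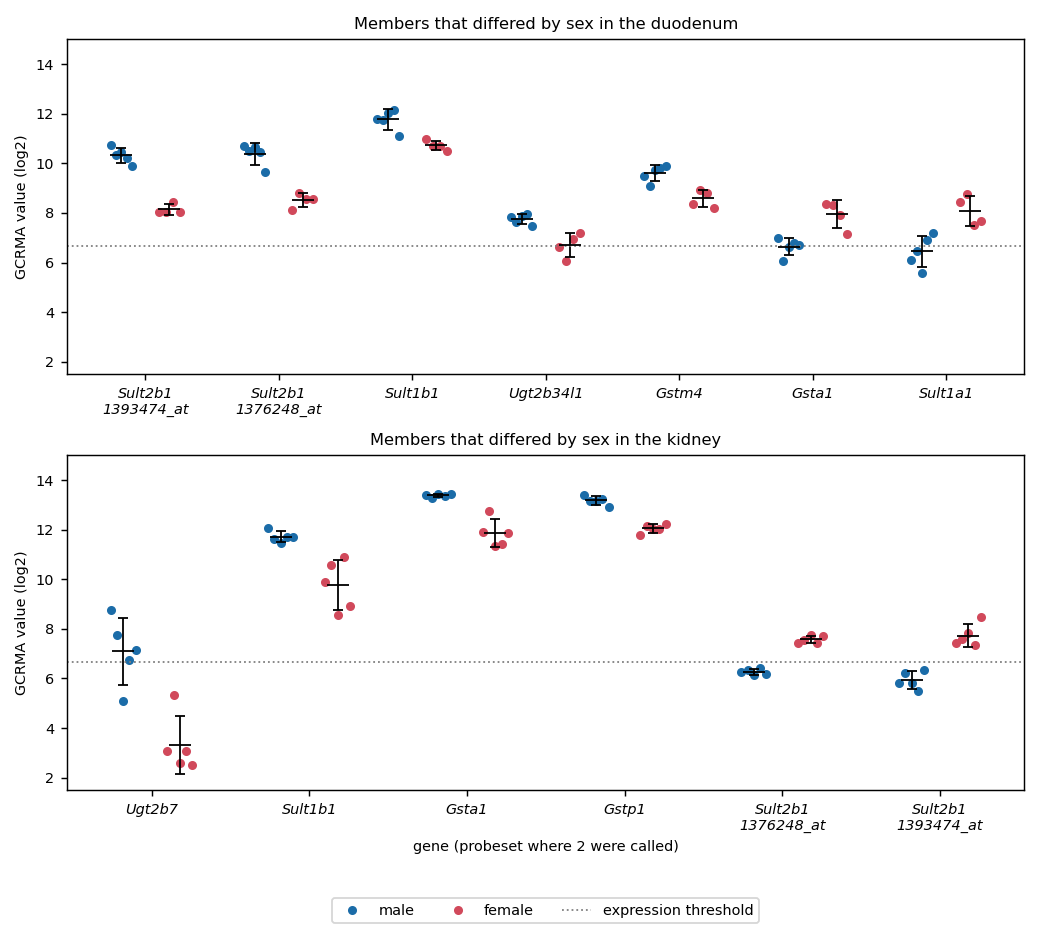
Log2 GCRMA values of the members that were SDE in the duodenum (upper panel, 5 males and 4 females) and in the kidney (lower panel, 5 of each), 1 point per array, males blue on the left and females red on the right, with mean and SD in black and the threshold of 6.7 dotted. Sult2b1 is higher in males in the duodenum and lower in males in the kidney, and Gsta1 the reverse.

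Partner genes were counted in the same comparisons. In the duodenum 5 of 16 conjugate processing and export genes were higher in males and none in females, among them Ggt1, which starts the breakdown of glutathione conjugates (9.78 ± 0.68 in males, SD, n = 5, and 6.74 ± 0.92 in females, SD, n = 4), and the exporter Abcc2 (8.22 ± 0.52 in males, SD, n = 5, and 6.0 ± 0.84 in females, SD, n = 4). A further 4 of 12 stress-response and phase I genes were higher in males there, as were Gsr of the cofactor list and the acetyltransferase Nat2. Over all probesets of the duodenum 2.27% were SDE and higher in males and 0.503% higher in females. In the kidney, where the shares over all probesets were 1.05% (males higher) and 0.796% (females higher), partner genes went both ways. The exporter Abcg2 (11.39 ± 0.12 in males, SD, n = 5, and 9.48 ± 0.22 in females, SD, n = 5) and the methyltransferases Tpmt (12.01 ± 0.13 in males, SD, n = 5, and 10.76 ± 0.04 in females, SD, n = 5) and Hnmt (12.98 ± 0.22 in males, SD, n = 5, and 11.87 ± 0.24 in females, SD, n = 5) were higher in males. Acsm1, an acyl-CoA synthetase (8.87 ± 0.49 in males, SD, n = 5, and 10.17 ± 0.37 in females, SD, n = 5), and the carboxylesterase Ces1d (9.39 ± 0.20 in males, SD, n = 5, and 11.04 ± 0.24 in females, SD, n = 5) were lower in males. In the liver these shares were 0.419% and 0.406%. There the acetyltransferase Nat8 (9.03 ± 0.25 in males, SD, n = 4, and 7.92 ± 0.41 in females, SD, n = 5) and the flavin monooxygenase Fmo1 (10.35 ± 0.19 in males, SD, n = 4, and 9.15 ± 0.41 in females, SD, n = 5) were higher in males, Acsm2, of the same family as Acsm1, was lower in males (4.76 ± 1.56 in males, SD, n = 4, and 8.48 ± 0.51 in females, SD, n = 5), and none of 14 cofactor genes was SDE. In the pituitary the cofactor genes Ugp2 (11.64 ± 0.17 in males, SD, n = 5, and 10.64 ± 0.11 in females, SD, n = 5) and Bpnt1 (9.83 ± 0.13 in males, SD, n = 5, and 8.68 ± 0.18 in females, SD, n = 5) were higher in males. In the adrenal Fmo1 was higher (9.35 ± 0.44 in males, SD, n = 5, and 8.12 ± 0.43 in females, SD, n = 5) and Hmox1 (4.02 ± 0.51 in males, SD, n = 5, and 7.35 ± 0.30 in females, SD, n = 5) and Nnmt (5.80 ± 0.24 in males, SD, n = 5, and 6.84 ± 0.30 in females, SD, n = 5) were lower in males.

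Outside these organs Sult1a1 and Sult5a1 were SDE. In the adrenal Sult1a1 was at 10.42, 10.19, 9.94, 9.86 and 9.56 in males and at 7.63, 7.93, 8.29, 7.85 and 8.35 in females (1.99 ± 0.19, SE, limma adjusted p = 0.00117). In the pituitary Sult1a1 was at 8.76, 8.62, 8.89, 8.35 and 8.93 in males and at 7.17, 7.62, 6.89, 6.90 and 7.01 in females (1.59 ± 0.16, SE, limma adjusted p = 0.000857). Both calls held under every alternative tried, and pituitary male 1 and female 1, the arrays with adrenal cortex markers, lay among the others of their sex. The direction of Sult1a1 in these glands is the opposite of that in the duodenum, a contrast that was not tested. Adipocyte markers averaged 5.23 to 7.32 in male and 6.58 to 8.30 in female adrenals, where Cfd was SDE (4.32 ± 1.45 in males, SD, n = 5, and 7.37 ± 0.72 in females, SD, n = 5), and Inha of the ovarian list was higher in male adrenals (7.70 ± 0.34 in males, SD, n = 5, and 6.66 ± 0.48 in females, SD, n = 5). In the pituitary Fshb was higher in males (12.67 ± 0.17 in males, SD, n = 5, and 9.08 ± 1.38 in females, SD, n = 5). The part of these markers in the differences of Sult1a1 was not tested.

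In the skin Sult5a1 was at 9.38, 9.57, 10.21 and 10.08 in males and at 8.22, 8.25, 8.32, 8.49 and 7.85 in females (1.58 ± 0.20, SE, limma adjusted p = 0.0414). The sexes did not overlap, yet the call was lost in 7 of 9 fits without 1 array (adjusted p up to 0.122). The adipocyte markers averaged 9.01 to 10.002 in male and 9.54 to 9.88 in female skin. Of these 6 markers, Cfd was SDE and lower in males (10.98 ± 0.45 in males, SD, n = 4, and 12.63 ± 0.09 in females, SD, n = 5), and its part in the difference of Sult5a1 was not tested.

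Whether sex differences themselves differed between tissues was tested over all probesets for 4 pairs of tissues. Of the 49 members, 12 (24.49%) differed between kidney and liver (2.11% of all probesets), 11 (22.45%) between duodenum and liver (4.65%), 9 (18.37%) between duodenum and kidney (7.13%) and 2 (4.082%) between adrenal and pituitary (2.44%). With the animal as a block these counts were 9, 7, 8 and 2. A call needed a mean above the threshold in 1 of the groups only. Some cases were therefore of genes expressed in 1 of the tissues alone, and largely restate the sex difference of that tissue. Kidney means were 2.78 for Sult1e1, 2.75 for Sult2a2, 2.96 for Sult2a6, 2.42 for Ugt2b34l1 and 4.92 for Sult1c3. The liver mean of Ugt2b7 was 2.86. Gstp1, higher in male kidneys, had a sex difference of -0.95 in the liver, and its kidney minus liver difference was 2.08 ± 0.46 (SE, limma adjusted p = 0.0139). Of the female livers, the array with lung markers, female 5, was the highest for Gstp1.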

How the data were processed

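Each array (RAE230_2) measured 1 organ of 1 animal. The authors summarised probesets with GCRMA and deposited the values on a log2 scale, already background-corrected and normalized, so they were used as given. The GCRMA version and the set of arrays normalized together were not given in the sources used here.

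The members and lists were chosen with earlier results of these data known. Organs and pairs of organs were compared in 1 limma fit of all groups of organ and sex (limma 3.58.1, R 4.3.3), the sexes within each tissue, and sex differences between tissues in a fit of both. P-values were adjusted (Benjamini-Hochberg) over 31042 probesets. A call needed an adjusted p under 0.05, a difference over 2-fold and a mean above about 6.7, the threshold of the methods, in 1 of the groups. The fits were tested on simulated data. Named were all SDE members, the 3 genes of each family with the highest organ mean, the leading member of an organ, members of all organs or 1, and the 3 largest differences each way between organs. Gstz1, Gstk1, Gstm2, Gstt1, Gsta4, Sult1d1 and some values of other members were named after their values were seen. Each sex of an organ had 2 to 5 arrays, which limits the precision. P-values of the sexes within a tissue measure the spread between animals. Fits that span organs without the animal as a block treat the arrays of 1 animal as independent. Their p-values therefore do not rest on independent animals alone. Same-numbered males and females are different animals and are not paired. Organs of 1 animal are paired. Fits with the animal as a block are given only for the sex differences between tissues. The counts and p-values of organs and pairs of organs come from the fit without that block. Alternatives were the t-test of the methods, other limma settings, thresholds, quantile normalization and leaving arrays out. Gene order and promoters came from RefSeq (GRCr8).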

Additional observations from a re-analysis of the deposited data

Results flagged for a closer look

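Of 44 groups of 4 or 5 arrays of an SDE member in 1 sex of a tissue, 5 held an array whose gap to its nearest neighbour took up more of the range than Dixon's critical value, and chance alone gives about 1 such group in 20. Liver female 1 stood above the other females for Sult1e1, at 5.91, and below them for Sult2a2, at 8.28. Sult2b1 in the duodenum stood apart in male 5 (9.64 on the brighter probeset) and in female 3 (8.46 on the dimmer one). Ugt2b7 in kidney female 2 was at 5.35. Duodenum male 5 is 1 of the arrays with gastric markers, whose part in its value was not tested.

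The difference between males and females itself differed between tissues in 34 cases (limma, adjusted p under 0.05, over 2-fold). With the animal as a block 26 of the 34 passed. Where a gene was below the threshold in both sexes of 1 tissue, the case can largely restate the sex difference of the other tissue. Sult1e1, at a kidney mean of 2.78, is an example. Sult2b1 on its brighter probeset, between kidney and liver, is not. Its fitted sex difference was -1.30 in the kidney and 1.75 in the liver. The liver mean was 4.36, so the liver part of that case lies below the threshold. Kidney minus liver, the difference of the sex differences passed for Gsta1 (1.66), Gsta3 (2.55), Gstp1 (2.08), Sult1b1 (2.06), Sult1c3 (-5.53), Sult1e1 (-9.85), Sult2a2 (7.34), Sult2a6 (3.40), Sult2b1 on its brighter probeset (-3.04), Sult2b1 on its dimmer probeset (-1.73), Ugt2b34l1 (3.82) and Ugt2b7 (3.54). Duodenum minus liver, it passed for Gsta3 (3.04), Sult1a1 (-1.76), Sult1b1 (1.15), Sult1c2 (-2.19), Sult1c3 (-5.31), Sult1e1 (-9.86), Sult2a2 (7.27), Sult2a6 (3.50), Sult2b1 on its dimmer probeset (2.24), Ugt2b10 (2.10) and Ugt2b34l1 (4.87). Duodenum minus kidney, it passed for Gsta1 (-2.84), Gstm2 (1.15), Gstp1 (-1.24), Sult1a1 (-1.68), Sult1c2 (-1.32), Sult2b1 on its brighter probeset (3.18), Sult2b1 on its dimmer probeset (3.97), Ugt2b34l1 (1.05) and Ugt2b7 (-3.96). Adrenal minus pituitary, it passed for Gstk1 (-1.01) and Gstt2 (1.35), neither of which was SDE in either gland. The 8 cases that did not pass with the animal as a block were Gsta3 between kidney and liver (adjusted p = 0.0686), Sult1b1 between kidney and liver (adjusted p = 0.0704), Sult1c3 between kidney and liver (adjusted p = 0.0533), Gsta3 between duodenum and liver (adjusted p = 0.0799), Sult1a1 between duodenum and liver (adjusted p = 0.0562), Sult1b1 between duodenum and liver (adjusted p = 0.115), Sult1c3 between duodenum and liver (adjusted p = 0.0592) and Gstm2 between duodenum and kidney (adjusted p = 0.0632).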

How the results depend on the processing

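No sex difference of a single member changed direction: 329 values under the alternatives kept their call and 89 lost it. The 22 SDE cases became 11 at an adjusted p under 0.01 (7 higher in males and 4 in females, liver 3, duodenum 2). The 8 cases higher in females became 5 by the t-test of the methods and 13 in 1 fit over all groups. The pituitary had 2 cases without the expression threshold or at 1.5-fold. Sex differences that differed between tissues fell to 7 for duodenum and liver and 1 for adrenal and pituitary at an adjusted p under 0.01. Without the expression threshold, members lower in an organ, summed over organs, were 390 in place of 156, with 24 in the thymus and 22 in the mandibular lymph node. At 4-fold this sum was 78, with 13 members higher in the duodenum, 8 differing between duodenum and colon and 9 between testes and ovary. With the threshold lowered by 1 log2 unit, 2 members were expressed in no organ. Shares over all probesets were not taken for the alternatives of this section. Their counts show how the calls depend on the settings and are no result about the members.

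With the replicate number as a block, the SDE cases were 10 (8 higher in males, 2 in females), with 1 in the liver, 6 in the kidney and 1 in the duodenum, and 7 sex differences differed between duodenum and liver. The same number in males and females does not pair them: the correlations of same-numbered arrays lay between -0.11 and 0.22 over 5 tissues.

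Leaving out 1 replicate number gave 14 to 21 SDE cases (14 without male 4), 9 to 13 higher in males, 5 to 9 higher in females, 4 to 5 in the liver, 2 to 7 in the duodenum (2 without male 3) and 1 to 2 in the pituitary. The sex difference differed in 8 to 12 members between kidney and liver, 8 to 12 between duodenum and liver, 7 to 11 between duodenum and kidney and 1 to 3 between adrenal and pituitary. Leaving out the 17 arrays that carry markers of another organ, a choice made after seeing the data, gave 19 cases, 12 higher in males and 7 in females. Low signal limits members below the threshold: their fitted differences are not bounds, and only the distance of the higher mean from the threshold is.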

Other observations

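Of the 4 probesets with several symbols that were left out, 2 stand for Ugt1 genes and had their highest means in the bowel. The brighter averaged 13.34 ± 0.18 in the colon (SD, n = 10), 13.28 ± 0.17 in the jejunum (SD, n = 9) and 13.26 ± 0.36 in the duodenum (SD, n = 9), and was lowest in the pituitary at 4.50 ± 0.74 (SD, n = 10). The other averaged 11.68 ± 0.78 in the colon (SD, n = 10) and 3.39 ± 0.62 in the pituitary (SD, n = 10). A probeset of several Gsta symbols was highest in the duodenum (13.34 ± 0.41, SD, n = 9) and liver (13.07 ± 0.59, SD, n = 9).

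In adipose, male 5 and female 2 carried hepatocyte markers (10.86 and 9.12, against a median of 4.53 over the organ) and differed from each other in sex-dependent members. Ugt2b was at 9.39 in male 5 and 9.13 in female 2. Sult1e1 was at 9.14 in male 5 and 2.78 in female 2, while Sult2a6 was at 4.03 in male 5 and 7.92 in female 2. The same genes in the liver were higher in males for Sult1e1 and higher in females for Sult2a6.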
